A study of Homo sapiens with 2 samples.

Results

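The cytoplasmic actin genes ACTB and ACTG1 were examined in a deposited list of peak summits from chromatin immunoprecipitation of Myocardin in A549 cells. A549 is a human lung cancer cell line, and the cells used here stably overexpressed MYOCD, the gene of Myocardin, from the vector pWPI. Chromatin of that stable line was precipitated with an anti-Myocardin antibody or with IgG, a nonspecific control, with 1 library per antibody. Both libraries therefore carry the same overexpression, and cells without it were not analysed here. The cells grew in DMEM with 10% fetal bovine serum, and whether the stable line is a single clone is not stated in the labels. The members are the summits in the gene span of ACTB or ACTG1 and in the 20 kb on each side. They number 12 of 105637, with 5 in the ACTB window and 7 in the ACTG1 window.

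ACTB and ACTG1 encode beta-actin and gamma-actin, which build the actin filaments of the cytoskeleton in nearly every cell type and are widely used as constitutively expressed genes. Both are known targets of serum response factor (SRF), a transcription factor that binds the A/T-rich CArG box. Myocardin and the related factors MRTF-A and MRTF-B bind SRF and activate it. Monomeric actin in turn binds the MRTFs and keeps them out of the nucleus, so the actin genes are part of a feedback loop. Myocardin itself is best known as a coactivator of smooth and cardiac muscle genes.

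The CArG box is what links these genes to SRF, so the reference promoter of ACTG1 is shown, from 250 bases before to 50 bases after the gene's start. It comes from RefSeq at chr17:81512750-81513049 of GRCh38.p14, minus strand, and is written 5′ to 3′ along the transcript with the CArG box in capitals.
ACTG1 promoter: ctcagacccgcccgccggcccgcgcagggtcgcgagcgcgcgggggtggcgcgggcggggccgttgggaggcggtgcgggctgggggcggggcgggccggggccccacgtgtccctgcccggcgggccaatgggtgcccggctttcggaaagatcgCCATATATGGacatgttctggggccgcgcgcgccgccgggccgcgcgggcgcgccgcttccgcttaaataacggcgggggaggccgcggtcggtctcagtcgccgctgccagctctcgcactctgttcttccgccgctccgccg

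This window held 1 exact CArG box, whose first base lies 94 bases and whose last base lies 85 bases before the start, and 1 CCAAT motif from 124 to 120 bases before it. It held no TATAA. Of 35116 RefSeq promoter windows of the same length, 1.29% held an exact CArG box, 34.6% CCAAT and 20.4% TATAA, with both strands searched. The ACTG1 window was rich in G and C, at 77.3% against a median of 58.7% over all promoter windows. The table was searched for the 6 actin genes and matched 5, all except ACTB.

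The 4 muscle actins are close relatives of the cytoplasmic ones and classical targets of SRF with Myocardin, and their boxes are shown for comparison, with 10 bases on each side. ACTA1 encodes the skeletal muscle alpha-actin, ACTC1 the cardiac alpha-actin, ACTA2 the vascular smooth muscle alpha-actin and ACTG2 the enteric smooth muscle gamma-actin. Capitals mark the exact CArG box, and all are from RefSeq, GRCh38.p14.
ACTG1: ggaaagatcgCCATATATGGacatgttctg
ACTA1: tgcccaacacCCAAATATGGctcgagaagg
ACTC1: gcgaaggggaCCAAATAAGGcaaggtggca
ACTG2, first box: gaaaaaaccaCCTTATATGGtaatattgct
ACTG2, second box: cgtcagctggCCTTTTTAGGgactttgttt

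Of the 7 RefSeq promoter windows of the muscle actins, 3 held an exact box. The box of ACTA1 begins 97 bases before its start and that of ACTC1 109 bases before the first of its 3 starts, against the 94 bases of ACTG1, and the boxes of ACTG2 begin 110 and 73 bases before its start. The second ACTC1 window held only a box with 1 mismatch in the outer bases, and the third held neither form. The first ACTG2 box overlaps a TATAA read on the opposite strand. Both RefSeq promoter windows of ACTA2 held no exact box. Neither held the form with 1 mismatch in the outer bases, which 12.0% of all promoter windows held. Boxes with a mismatch inside the A/T core were not searched for, so the ACTA2 windows may hold such a box. A match is a description of these letters and not a bound site. Summits at the muscle actins were not counted, because the positions of these genes in GRCh37, the assembly of the list, were not used here.

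The deposited list gives chromosome, position and a peak score for each summit, and each summit is 1 bp wide. Because no column names an antibody, the signal of anti-Myocardin at the actin genes could not be set against that of IgG. The score has no stated unit and is the authors' value for each peak, used here only to rank summits within the list. Over the whole list the scores lay between 2.15 and 281.39, and the lower quartile was 6.49, the median 8.50 and the upper quartile 12.2. The sources used here do not state the read depth. There is no replicate, so each value below describes this list and no test between conditions was possible.

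Each of the actin genes had 1 summit inside its span, close downstream of its start, and both of these summits had low scores. ACTB occupies chr7:5566779-5570232 of GRCh37 on the minus strand, and its summit lay at position 5569851, 381 bp downstream of the start. Its score was 2.87. Only 146 summits of the list, or 0.138%, scored that or less, and on chromosome 7 only 6 of 6349 did, this summit included.

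ACTG1 occupies chr17:79476997-79479892 on the minus strand, and its summit lay at position 79479572, 320 bp downstream of the start. Its score was 4.13, which 4008 summits of the list (3.79%) and 243 of 6975 on chromosome 17 did not exceed. The ACTG1 span is 67 bp longer in the GRCh37 coordinates used here than in the RefSeq table of GRCh38.p14, and which end differs was not settled. The distance of 320 bp therefore carries that uncertainty, and it was not added to the distance between CArG box and start. The ACTB span has the same length, 3454 bp, in both. No exon positions were used, so the summits were not assigned to an exon or an intron.

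Most stretches of this length held no summit on either chromosome. Of all adjoining 2 kb windows of chromosome 7, 7.69% held at least 1 summit, and of those of chromosome 17 16.6% did. These set the background for the 1 summit within 1 kb of each start site. Windows as long as the gene spans held a summit in 12.8% of cases on chromosome 7, for the 3454 bp of ACTB, and in 23.3% on chromosome 17, for the 2896 bp of ACTG1. The comparison is with all sequence outside peak-free stretches of at least 1 Mb and not with other start sites.

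**Figure D1:**
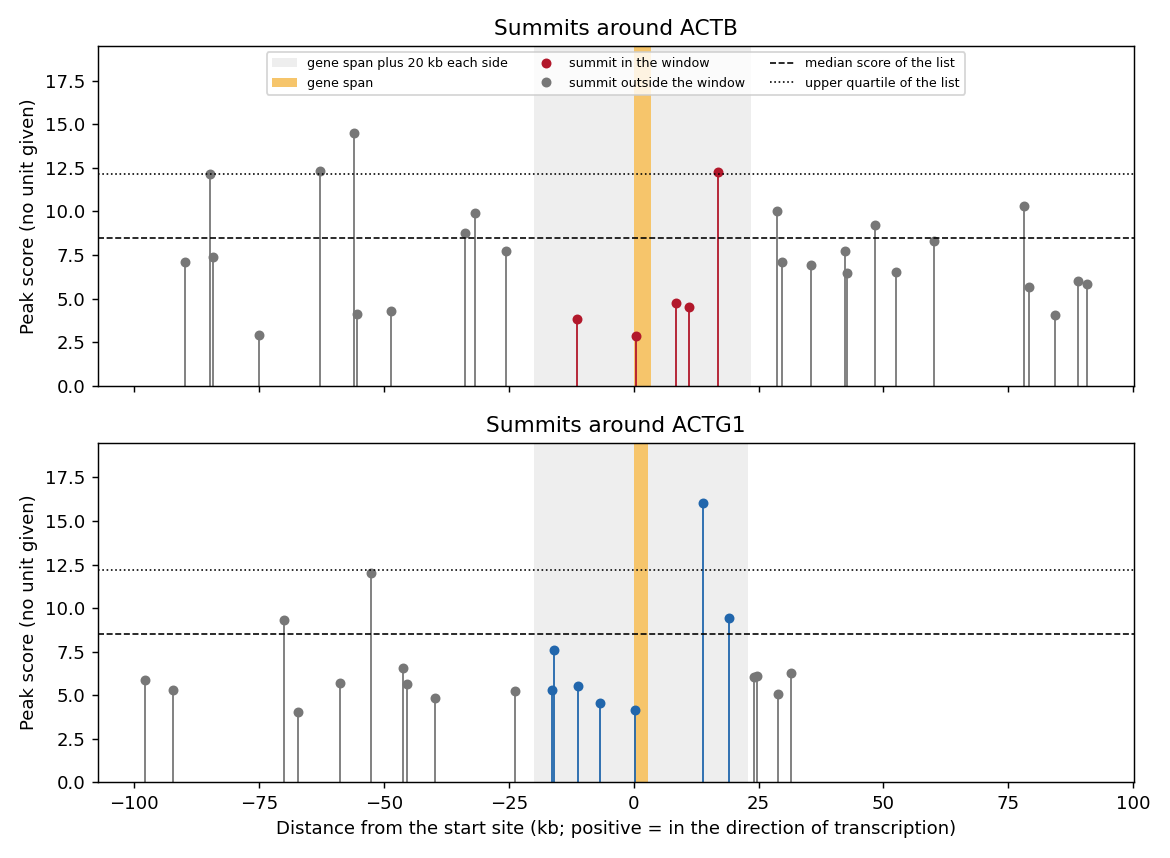
Peak score (vertical axis, no unit given) of every summit within 100 kb of the start site of ACTB (top, 29 summits) and ACTG1 (bottom, 21 summits), by distance from the start in kb, positive in the direction of transcription. Coloured points lie in the gene span (orange) or the 20 kb beside it (grey), and the dashed and dotted lines are the median (8.50) and upper quartile (12.2) of the list. The gene-span summits score 2.87 and 4.13, and the highest-scoring summit of each window lies downstream, at 16.9 kb for ACTB and 13.9 kb for ACTG1.

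The summit inside each gene was the lowest-scoring of its window. At ACTB the other 4 summits scored 12.3, 4.53 and 4.73 in the downstream flank and 3.84 in the upstream flank. These lay 16.9, 11.0 and 8.54 kb downstream and 11.3 kb upstream of the start, so low scores stood on both sides of the gene and only the farthest summit reached the upper quartile. At ACTG1 the downstream flank held summits of 9.45 and 16.0, at 19.1 and 13.9 kb from the start. Its upstream flank held 4, with scores of 4.58, 5.52, 7.60 and 5.32 at 6.79, 11.1, 16.0 and 16.5 kb. The last 2 of these were 499 bp apart.

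In both windows the summits in and upstream of the gene scored under the median of the list, and the strongest lay 3′ of the gene. Across the 12 summits, 9 scored under the median of the list and 8 under its lower quartile, 4 in each window. The background for the lower quartile was 23.0% of the summits of chromosome 7 and 24.5% of those of chromosome 17. In the top 25% of scores lay 1 of 5 summits at ACTB, at position 5553298, and 1 of 7 at ACTG1, at position 79465966. The exact Clopper-Pearson 95% intervals of these shares, 0.505% to 71.6% and 0.361% to 57.9%, include the chromosome-wide 26.9% and 26.0%. They cover counting error only.

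**Figure D2:**
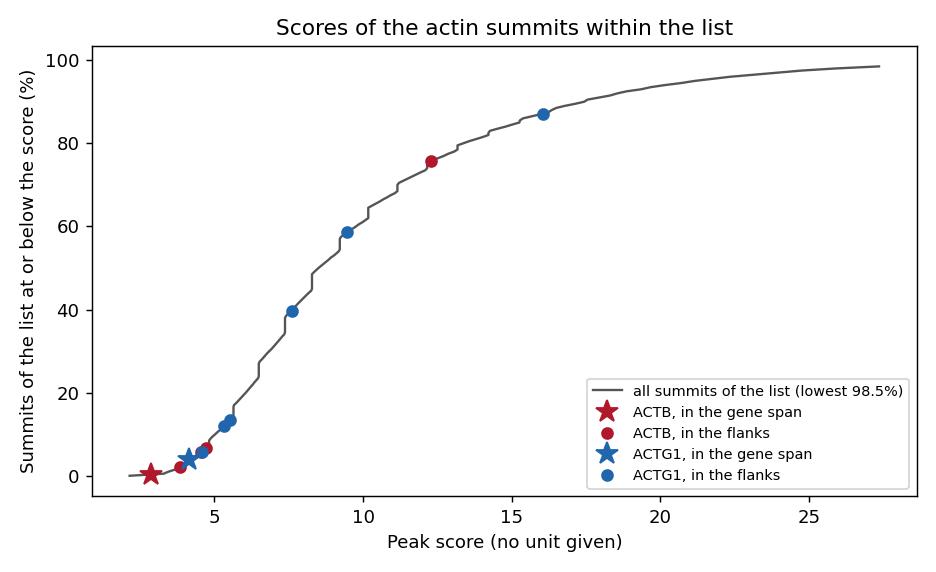
Scores of the 12 actin summits (points, horizontal axis, no unit given) on the cumulative distribution of the list (line, share of summits at or below each score in %, drawn up to 98.5%). Stars mark the summits inside ACTB and ACTG1, at 0.138% and 3.79%, and circles mark the summits in the flanks, which run up to 75.7% for ACTB and 87.1% for ACTG1.

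Scores were also low in comparison with equally crowded stretches of the same chromosomes, though the surrounding summits scored low as well, more so at ACTG1. The 21 summits within 100 kb of the ACTG1 start, those of the window included, had a median of 5.69. The 29 within 100 kb of the ACTB start, counted in the same way, had a median of 7.09. The median score was 4.53 in the ACTB window and 5.52 in the ACTG1 window, against 8.74 over chromosome 7 and 8.67 over chromosome 17. Chromosome 7 had 148 windows of the same length with exactly 5 summits, and their median scores ran from 4.14 to 19.3 with a middle value of 8.30. Of these 148, 3 had a median at or below that of ACTB. On chromosome 17, 125 windows held exactly 7 summits, with median scores from 4.98 to 15.5 and a middle value of 7.84, and again 3 lay at or under the ACTG1 median. The strongest summit of each window was less unusual, since 57 of the 148 and 76 of the 125 windows had a maximum no higher than 12.3 at ACTB and 16.0 at ACTG1. The lowest score set the genes apart from each other. A minimum of 2.87 or less, as at ACTB, was found in 2 of the 148 windows, whereas 42 of the 125 windows had a minimum no higher than the 4.13 of ACTG1, so a summit that low was common in windows with 7 summits.

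The summits inside the genes had no close neighbour. The ACTB summit stood 8.16 kb from the nearest other summit and the ACTG1 summit 7.11 kb. Such spacing was common, since 45495 of the 105629 nuclear summits were at least as far from another as that of ACTB. Among these 45495 the median score was 9.22 and 42 (0.0923%) scored 2.87 or less. Among the 51170 at least as far as that of ACTG1, 1534 (3.00%) scored 4.13 or less. Among the 13899 summits 7 to 10 kb from the nearest other, the range that holds both, 31 (0.223%) scored no more than the ACTB summit and 556 no more than the ACTG1 summit. Both shares are slightly above the 0.138% and 3.79% of the whole list. Summits 0 to 0.5 kb from another had a lower median score, 6.50, and 9.93% of them scored no more than the ACTG1 summit.

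In the wider surroundings the ACTB summit remained at the bottom and the ACTG1 summit did not. Of the 97 summits in the 1 Mb centred on the ACTB start none scored below 2.87, whereas 15 of the 120 around the ACTG1 start scored below 4.13. Another summit within 100 kb of the ACTB start scored nearly as low, at 2.89. The median score of the 1 Mb was 7.72 around ACTB and 6.14 around ACTG1. The latter is itself under the lower quartile of the list, 6.49, so the low scores at ACTG1 were shared by its surroundings. The median around ACTB was above that quartile but under the median of the list, 8.50. In the top 25% of scores lay 15.5% of the summits around ACTB and 6.67% of those around ACTG1.

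With 20 kb flanks and all scores, the number of summits at the actin genes was in the upper part of the range along their chromosomes. The ACTB window, 43.5 kb long, carried 115 summits per Mb, against 40.8 over the covered sequence of chromosome 7. The ratio was 2.82, with an exact Poisson 95% interval of 0.915 to 6.58 that treats summits as independent. The ACTG1 window, 42.9 kb long, carried 163 summits per Mb, against 89.2 on chromosome 17, a ratio of 1.83 (0.735 to 3.77). Both intervals include 1, so at counts of 5 and 7 an excess was not resolved. With 50 kb flanks the ACTB window held 16 summits and its ratio of 3.79 had an interval above 1 (2.17 to 6.15). This interval too treats summits as independent. Counts in 43.5 kb windows of chromosome 7 were uneven, with a mean of 1.77, 30.7% at 0 and a highest of 12. The interval may therefore be too narrow. With 10 kb flanks the ACTG1 window held 2 summits and its ratio was 0.979.

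Set beside all adjoining windows of the same length, 9.5% of 3578 on chromosome 7 held at least the 5 summits of ACTB, where the median window held 1. On chromosome 17, 13.6% of 1821 held at least the 7 of ACTG1, where the median window held 4. The place in this range depended on the setting. At ACTB the share was 1.80% with 50 kb flanks and 36.9% over the top 25% of scores, and at ACTG1 it was 59.7% with 10 kb flanks, 61.6% over the top 25% of scores and 2.27% among windows of all autosomes. The surroundings were dense as well, and relative to the 1 Mb around the start the ratio was 1.19 for ACTB and 1.36 for ACTG1. With 20 kb flanks both windows thus stood closer to the density of their surrounding megabase than to that of the whole chromosome. The megabase includes the window itself. With 10 kb flanks the ACTG1 density was near that of chromosome 17, at a ratio of 0.979.

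**Figure D3:**
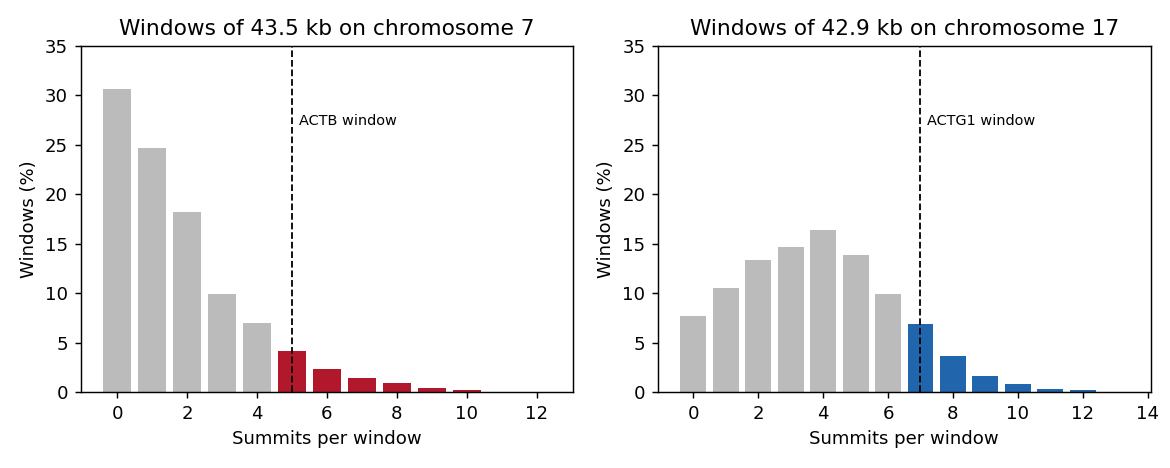
Number of summits (horizontal axis) in adjoining windows as long as the ACTB window on chromosome 7 (left) and as the ACTG1 window on chromosome 17 (right), with the share of windows in % on the vertical axis. Dashed lines mark the actin windows, with 5 and 7 summits, and coloured bars are windows with at least as many, 9.5% and 13.6%.

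The genes around the actins are named by their order in the RefSeq table of GRCh38.p14, and summits were not assigned to them. On the upstream side the next protein-coding genes are FSCN1 beside ACTB and FSCN2 beside ACTG1, which encode fascins, proteins that bundle actin filaments. On the downstream side they are FBXL18, of the F-box protein family, and BAHCC1. The upstream summits differed in number, with 1 in the 20 kb beyond ACTB and 4 beyond ACTG1. On the downstream side the next summit after the one inside ACTG1 lay 13.6 kb away and was the strongest of the window. At ACTB the next summit lay 8.16 kb away and scored only 4.73. The strongest summit of the ACTB window was farther out, 16.9 kb from the start against 13.9 kb at ACTG1.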

How the data were processed

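The authors deposited 1 list of summits for the series, with a peak score per summit, per the file headers. The intervals span 1 bp, and the end coordinate was taken as the summit. MACS, a peak caller, appears only in the name of the list. The sources used here do not give its settings, the aligner or the role of the IgG library in calling. The submitters' processing notes name CASAVA 1.4, mm9 and GRCh38.p12. No nuclear summit lies past a chromosome end of GRCh37, against 1093 on GRCh38, 1667 on hg18 and 20275 past an end or on an absent chromosome on mm9, so positions are read as GRCh37 (chromosome lengths from the R package GenomeInfoDb). Libraries were amplified by PCR, and intervals cover counting error only.

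Summits were counted with Python 3.11.15 and pandas 2.3.3. In place of random windows, all adjoining windows of equal length were used, except those that touch a summit-free stretch of 1 Mb or more, and no p-value was computed. Window counting was tested on simulated lists. The genes named are ACTB, ACTG1, the muscle actins and the neighbours by order. No per-sample column was left out. The genes, windows and lists were chosen with earlier results of these data known.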

Additional observations from a re-analysis of the deposited data

How the results depend on the processing

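Of 33 alternatives over 10 results, 23 stayed within the interval of the value or within 1.5 times the count, 10 moved and 0 reversed. The share of windows with at least as many summits as at ACTB was 11.3% with 10 kb flanks, 1.80% with 50 kb flanks and 36.9% over the top 25% of scores. At ACTG1 it was 59.7% with 10 kb flanks, 61.6% over the top 25% of scores and 2.27% over all autosomes. The 10 kb flanks hold only 3 summits at ACTB and 2 at ACTG1, and the top 25% leaves 1 summit in each window. The density ratios ran from 2.09 to 3.79 at ACTB and from 0.979 to 1.90 at ACTG1. The ratio of 0.979, with 10 kb flanks, is counted among the 23 because it lies within the main interval, although it falls below 1. At ACTB the lower end of the interval passed 1 only with 50 kb flanks (3.79, 2.17 to 6.15). That interval treats summits as independent and may be too narrow. The share of summits scoring no more than the summit inside the gene was 0.0945% on chromosome 7 and 0.0923% among summits as isolated for ACTB, and 3.48% on chromosome 17 and 3.00% for ACTG1. These settings, and a start of ACTG1 moved by 67 bp, were chosen after seeing the data. No replicate could be left out, and no paired analysis was possible because each antibody has 1 library and the list ties no value to either. Without read counts, what depth limits here is unknown.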
